A study of Mus musculus and Acomys cahirinus with 25 samples.

Results

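The genes described here are 10 contractile genes of myofibroblasts, smooth muscle and pericytes: Acta2, Tagln, Cnn1, Myh11, Myl9, Actg2, Des, Tpm2, Lmod1 and Rgs5. They were taken by symbol from the 24500 gene rows of each count table, and all 10 symbols were present in all 25 libraries. The libraries are RNA-seq of separated epidermis and dermis from laboratory mice and from the African spiny mouse (Acomys cahirinus). The study names C57BL/6J as its primary laboratory mouse. The study compared them to ask how tissue mechanics and the epidermal transcription factor Twist1 bear on new hair formation in large wounds. The 13 laboratory mouse libraries came from 1 x 1 cm full-thickness wounds at post-wound day (PWD) 14. The wound center was cut out with a punch, and the tissue around it was the wound margin. These were epidermis of wild-type wound center (2 libraries) and wound margin (2), dermis of wild-type wound center (5) and wound margin (2), and dermis of K14-Cre-Twist1 wound center (2). K14-Cre-Twist1 mice carry a conditional Twist1 allele cut by Cre in keratinocytes, and the controls of that cross were Twist1+/+. The study's methods name no strain for these controls. Laboratory mice were wounded at an age of 4 weeks per the study's methods and 3 weeks per its results text. The 12 spiny mouse libraries came from 2-month-old wild-type animals. The study took whole wounds, describes PWD0 as the state before new hair formation, and names shaved skin or wound as the tissue. Comparisons with PWD0 are thus read as wound against skin before healing. Dermis gave 2 libraries each of PWD0 and PWD21 and 1 each of PWD14 and PWD28, and epidermis 2 each of PWD14 and PWD21 and 1 each of PWD0 and PWD28.

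Contractile cells pull on their surroundings by sliding myosin along actin filaments. Acta2 (alpha smooth muscle actin) and Actg2 (gamma smooth muscle actin) form the filaments, Tpm2 (a tropomyosin) lies along them, Lmod1 (leiomodin) starts their assembly, and Cnn1 (calponin) and Tagln (transgelin) bind them. Myh11 is the smooth muscle myosin heavy chain and Myl9 its regulatory light chain. Des is the intermediate filament protein desmin, made in smooth, cardiac and skeletal muscle, and Rgs5 is a G protein regulator that marks pericytes. In skin wounds, fibroblasts take on Acta2 and Tagln when they become myofibroblasts, the cells that close the wound and stiffen its matrix, while Myh11, Lmod1 and Des are better known from vessel walls and hair muscles. Serum response factor with its myocardin family partners drives many of these genes through the CArG box, a 10-base element that begins with a pair of Cs, ends with a pair of Gs and holds only A and T between them.

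On the mouse genome (GRCm38, GENCODE annotation) Acta2 lies at chr19:34241090-34255590, Tagln at chr9:45929619-45936058, Cnn1 at chr9:22099216-22109630, Myh11 at chr16:14194535-14291372 and Myl9 at chr2:156775420-156781658. Actg2 lies at chr6:83512905-83536265, Des at chr1:75360329-75368579, Tpm2 at chr4:43514711-43523765, Lmod1 at chr1:135324807-135368065 and Rgs5 at chr1:169655501-169695813. Values are over all exons of each gene. RefSeq gives promoter windows on GRCm38.p6 from 250 bases before to 50 bases after its gene start. Of the 10 genes 7 had one, and these were searched on both strands for the CArG box. Gene starts named below are those of RefSeq. Tagln, Myh11 and Actg2 had no window in the set used here, so their promoters were not searched. The element is shown because it is what these genes are known to share and the choice of genes did not use it. Myl9, a gene of chromosome 2, held it exactly at 1 place, with its first base 161 bases before the gene start, and with 1 letter departing at 1 other place. Acta2 on chromosome 19 and Lmod1 on chromosome 1 each held it at 2 places with 1 letter departing, and the places shown begin 84 and 189 bases before the start. No match with at most 1 departure was found in the windows of Cnn1, Des, Tpm2 and Rgs5. Among all 32851 promoter windows of the same length, 1.629% held the exact element and 21.11% held it with at most 1 departure, so an inexact match is common. The 60 bases around 1 match of each gene, the exact one for Myl9, are given 5′ to 3′ on the strand of the gene, with the element in capitals. The Myl9 stretch is at chr2:156775278-156775337 and the Lmod1 stretch at chr1:135324599-135324658, both on the plus strand. The Acta2 stretch is at chr19:34255423-34255482 on the minus strand. All lie upstream of the RefSeq gene start, while the Acta2 stretch lies within the GENCODE span given above.
Myl9: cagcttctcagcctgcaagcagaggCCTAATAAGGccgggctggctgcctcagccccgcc
Acta2: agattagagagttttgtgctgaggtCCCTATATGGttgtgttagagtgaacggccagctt
Lmod1: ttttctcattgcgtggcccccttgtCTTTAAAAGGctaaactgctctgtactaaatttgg

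Levels are given as CPM, the reads on a gene scaled to 1000000 reads on all genes of that library. Reads on genes ranged from 19413261 to 86532134 in laboratory mouse libraries and from 5669760 to 34751956 in spiny mouse libraries, and the smallest amount taken as detectable, 3 counts, was 0.0347 to 0.155 CPM and 0.0863 to 0.529 CPM in these. That amount covers counting error only. Fitted log2 differences use TMM factors, which rescale whole libraries, so they can differ from the ratio of the CPM printed beside them. Spiny mouse reads were aligned to the mouse genome, and levels were not tested between species. The labels do not say that replicate libraries are separate animals, so the tests measure only the spread between these libraries. In bulk tissue, fewer contractile cells and less contractile RNA per cell cannot be told apart. Twist1, deleted in keratinocytes only, stood at 73.4 and 44.0 CPM in the K14-Cre-Twist1 dermis and at 36.3 to 159 CPM in the 5 wild-type center dermis libraries, which checks nothing about the deletion.

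**Figure D1:**
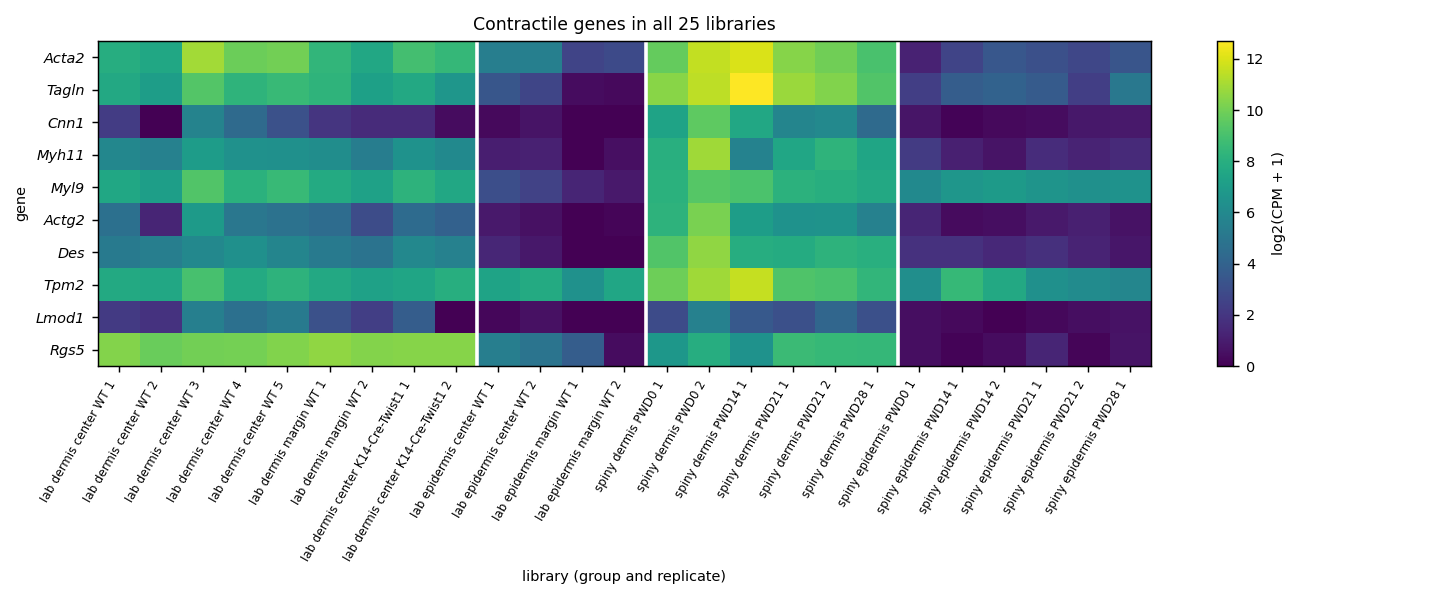
Level of each of the 10 contractile genes in all 25 libraries, as log2(CPM + 1) on the color scale, where lighter is higher, with 1 column per library and white lines between tissues and species. Dermis columns are lighter than epidermis columns for most genes of both species, while Tpm2 is near the same level in both tissues of laboratory mouse wounds.

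Nearly all of the contractile genes were higher in dermis than in epidermis, and Tpm2 was the exception in laboratory mice. At the wound center, 9 of 10 genes were higher in dermis (5 libraries against 2) by the quasi-likelihood test of edgeR (FDR under 0.05, adjusted by Benjamini-Hochberg over every gene tested), where 24.9% of all 15017 genes tested were higher. The median log2 difference of the 10 genes was 4.79, beside 0.08 over all genes tested. Acta2 stood at 41.6 and 43.3 CPM in center epidermis and at 188 to 1981 CPM in center dermis, a log2 difference of 3.66 ± 0.96 (SE, FDR 0.0107). Rgs5 stood at 42.5 and 28.5 CPM in center epidermis and at 908 to 1318 CPM in center dermis (log2 difference 4.25 ± 0.34, FDR 1.21e-05). In both genes every dermis library lay above both epidermis libraries. The log2 difference was 4.78 ± 0.71 for Tagln (FDR 0.000430), 5.39 ± 0.52 for Myh11 (FDR 3.33e-05), 5.03 ± 0.70 for Myl9 (FDR 0.000296) and 4.81 ± 0.50 for Des (FDR 5.08e-05). The genes with the widest errors were Cnn1 (4.6 ± 1.72, FDR 0.0472), Actg2 (5.22 ± 1.45, FDR 0.0140) and Lmod1 (5.46 ± 1.40, FDR 0.00880). Tpm2, whose product is also a tropomyosin of non-muscle cells, was 167 and 215 CPM in center epidermis and 198 to 506 CPM in center dermis (log2 difference -0.13 ± 0.38, FDR 0.791), and the libraries overlapped. Its mean CPM was higher in dermis, 285 against 191, while its fitted value was negative, so its direction depends on the scaling and none is given. With only replicates 1 and 2 of the center dermis, 7 genes were called, of which 6 were higher. The seventh was Tpm2, with a fitted value of -0.70 (FDR 0.0224) beside mean CPM of 202 in dermis and 191 in epidermis, again of opposite sign. With either epidermis library left out, 5 or 6 genes were called.

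At the wound margin, 9 of 10 genes were again higher in dermis (2 libraries against 2), where 27% of 14964 genes were, and Tpm2 did not pass (log2 difference -0.38 ± 0.37, FDR 0.432), at a mean CPM of 178 in dermis and 133 in epidermis, which has the opposite sign. Tagln stood at 0.340 and 0.254 CPM in margin epidermis and at 304 and 149.5 CPM in margin dermis, a log2 difference of 8.85. The log2 difference was 4.73 ± 0.42 for Acta2 (FDR 1.65e-05), 6.89 ± 0.78 for Myh11, 6.61 ± 0.50 for Myl9, 6.62 ± 1.16 for Actg2 and 7.05 ± 1.17 for Rgs5. Cnn1, Des and Lmod1 had no read in either margin epidermis library. Against 3 counts in the shallower of those libraries, Des was at least 374-fold, Lmod1 at least 70.7-fold and Cnn1 at least 28.4-fold higher in margin dermis. The median log2 difference was 6.97 as fitted and 6.61 with these 3 genes at their bounds, beside 0.16 over all genes. With at least 10 counts asked in every library, only 5 of the genes were tested and 4 were called.

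Spiny mouse wounds at PWD21 gave the same direction for all 10 genes, which were higher in dermis in 2 libraries against 2 where 33.5% of 14966 genes were. Rgs5 had the widest fitted log2 difference, 8.52 ± 0.75 (FDR 5.97e-05), with 400.4 and 359.8 CPM in dermis and 1.51 and 0.114 CPM in epidermis. The 0.114 CPM is 2 counts, below the 3 taken as detectable, so the size of this difference is uncertain. It ranged from 7.79 to 11.6 with single libraries left out. Myl9 had the narrowest, 1.46 ± 0.20 (FDR 0.000600), with 289 and 246 CPM in dermis and 94.4 and 82.9 CPM in epidermis. Tpm2, which did not pass in laboratory mice, was 590.0 and 532 CPM in spiny mouse dermis and 83.4 and 69.9 CPM in epidermis (log2 difference 2.74 ± 0.22, FDR 4.27e-05). The other 7 genes had log2 differences from 5.33 for Lmod1 to 7.43 for Tagln, with 7.36 for Acta2, 7.0 for Myh11, 6.90 for Des, 6.72 for Cnn1 and 6.37 for Actg2 between them. The difference between the species was not tested. All 10 calls held with each library left out.

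The 5 wild-type center dermis libraries of laboratory mice did not form one level. The library names printed with the study's heat maps put replicates 1 and 2 in the center against margin comparison and replicates 3, 4 and 5 in the K14-Cre-Twist1 comparison. Acta2 was 242 and 188 CPM in replicates 1 and 2 and 1981, 934 and 1029 CPM in replicates 3 to 5, a ratio of means of 6.11. Lmod1 was 3.53 and 2.63 CPM against 44.3, 24.6 and 35.0 CPM, a ratio of 11.2. Cnn1 was 3.81 and 0 CPM against 50.1, 19.7 and 7.97 CPM, a ratio of 13.6. In all, 9 of 10 genes were higher in replicates 3 to 5 with no overlap, where 17.7% of 13437 genes were. The 9 ratios ranged from 1.69 to 13.6, and the lowest were those of Des, Tpm2 and Myh11 (1.69, 1.69 and 1.87). Rgs5, the pericyte gene, was the exception, at 1318 and 908 CPM against 1031, 1046 and 1261 CPM, a ratio of 1.0. This division was not tested, since the labels put all 5 libraries in 1 group. The study used Twist1+/+ mice as controls in its transgenic work, so mouse line may differ with this division. Its part in the result was not tested. Summed keratinocyte markers stood at 464 to 681 CPM in replicates 1 and 2 and at 40.2 to 90.7 CPM in replicates 3 to 5, and summed endothelial markers at 1079 to 1228 CPM and 1674 to 2032 CPM. Their part in the result was not tested.

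Per kilobase of exon, the order of the genes also differed between these libraries. In replicates 1 and 2 Rgs5 was highest at 245 CPM per kilobase, followed by Myl9 at 146 and by Tagln and Acta2 at 106 each, the last 2 with overlapping libraries. In replicates 3 to 5 Acta2 was highest at 646 CPM per kilobase (459 to 973), followed by Myl9 at 377 (246 to 549), Tagln at 276 (190 to 403) and Rgs5 at 245 (227 to 277). Neighbors in that order overlapped, while Acta2 and Rgs5 did not.

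**Figure D2:**
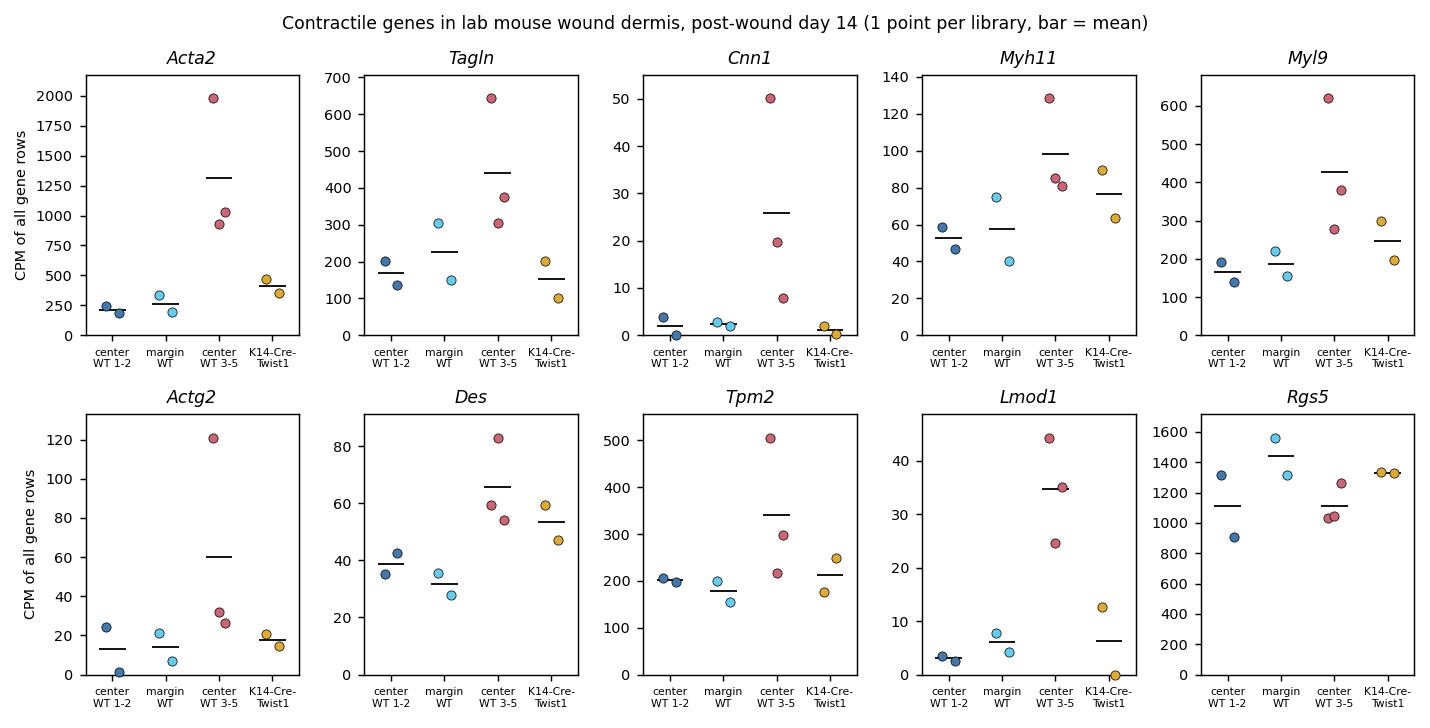
CPM, on axes that start at 0, of the 10 contractile genes in the 9 laboratory mouse dermis libraries, each point being 1 library and each bar a group mean, with the wild-type wound center shown as replicates 1 and 2 and replicates 3 to 5. For 9 genes the points of replicates 3 to 5 lie above those of replicates 1 and 2, and for Rgs5 all groups lie between 908 and 1563 CPM.

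Between wound center and wound margin dermis, none of the 10 genes passed the test. The center was represented by replicates 1 and 2 and compared with 2 margin libraries. By edgeR's test 0 of the 10 passed an FDR of 0.05, where 0.85% of 14698 genes did, and 0 had an unadjusted p under 0.05. DESeq2 called 0 as well. The median log2 difference was -0.13, beside -0.03 over all genes. Acta2 was 242 and 188 CPM in the center and 332 and 193 CPM in the margin, a log2 difference of -0.20 ± 0.28 (FDR 0.802). Myh11 was 58.5 and 46.6 CPM against 75.0 and 40.5 CPM (log2 difference -0.05 ± 0.34, FDR 0.971). The libraries overlapped in both genes and in 8 of the 10. Actg2, at 24.5 and 1.49 CPM in the center and 21.1 and 6.80 CPM in the margin, varied more within each pair than between them (log2 difference 0.03 ± 0.85, FDR 0.993). The log2 difference was 0.37 ± 0.32 for Des, 0.27 ± 0.21 for Tpm2, -0.34 ± 0.33 for Tagln, -0.17 ± 1.16 for Cnn1 and -0.094 ± 0.26 for Myl9.

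Rgs5 and Lmod1 were lower in the center without overlap, in a comparison where 30.1% of genes were. Rgs5 was 1318 and 908 CPM in the center and 1563 and 1319 CPM in the margin (log2 difference -0.28 ± 0.24, FDR 0.648). Lmod1 was 3.53 and 2.63 CPM against 7.84 and 4.19 CPM (log2 difference -0.87 ± 0.83, FDR 0.690). Summed keratinocyte markers were 464 to 681 CPM in the center and 2350.3 and 4748 CPM in the margin, and 6 of their 14 genes were lower in the center by the same test. With all 5 wild-type center libraries the call count stayed at 0, but the sign turned for Acta2 (log2 difference 1.92, FDR 0.210), Cnn1 (3.0, FDR 0.256), Lmod1 (2.10, FDR 0.270), Myl9 (0.97, FDR 0.322), Tagln (0.73, FDR 0.484) and Myh11 (0.64, FDR 0.420).

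In the K14-Cre-Twist1 wound center dermis, 9 of 10 genes had lower fitted values than in wild type, and 0 passed the FDR. The 2 mutant libraries were compared with wild-type replicates 3 to 5, and 0.0565% of 14163 genes passed in either direction. An unadjusted p under 0.05 was reached by 5 of the 10, and all 5 were lower. The median log2 difference was -1.16, beside -0.07 over all genes. Acta2 was 473 and 349 CPM in the mutant and 1981, 934 and 1029 CPM in wild type, a log2 difference of -1.68 ± 0.40 (FDR 0.263). Tagln was 201 and 102 CPM against 643, 304 and 375 CPM (log2 difference -1.53 ± 0.43, FDR 0.276). Cnn1 was 1.93 and 0.323 CPM against 50.1, 19.7 and 7.97 CPM (log2 difference -4.55 ± 1.17, FDR 0.267). Every mutant library lay below every wild-type library in these 3 genes. The same held for Actg2, at 20.8 and 14.4 CPM against 121, 32.2 and 26.6 CPM (log2 difference -1.78 ± 0.71, FDR 0.403). It also held for Lmod1, at 12.6 and 0 CPM against 44.3, 24.6 and 35.0 CPM (log2 difference -2.47 ± 0.88, FDR 0.363). So 5 of 10 genes were lower with no overlap, where 16.7% of genes were.

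The other 5 genes had values closer to 0. Myl9 was 299 and 196 CPM in the mutant and 619.8, 277 and 380.4 CPM in wild type (log2 difference -0.78 ± 0.38, FDR 0.458). Tpm2 was 177 and 249.8 CPM against 506, 218 and 298 CPM (log2 difference -0.69 ± 0.37, FDR 0.493). The libraries overlapped in both, as they did in Myh11 (log2 difference -0.36 ± 0.31, FDR 0.642) and Des (-0.29 ± 0.30, FDR 0.702). Rgs5 was the only gene with a positive value, at 1336 and 1329 CPM against 1031, 1046 and 1261 CPM (log2 difference 0.25 ± 0.25, FDR 0.681), and its mutant libraries lay above every wild-type library, where 12.7% of genes did so.

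These calls depended on the tool and on single libraries. DESeq2 called 3 of the genes lower, Acta2 (FDR 0.00167), Tagln (FDR 0.0134) and Cnn1 (FDR 0.000492), in a fit that called 787 genes in all, beside 8 by edgeR. A fit without either mutant library leaves 1 in that group, so only effect sizes are given here. With each of the 5 libraries left out, the log2 difference ranged from -1.96 to -1.24 for Acta2. It ranged from -2.16 to -1.10 for Tagln and from -6.37 to -3.57 for Cnn1. Mutant replicate 2 held 35823 CPM of summed keratinocyte markers, against 1069 CPM in mutant replicate 1 and at most 90.7 CPM in the 3 wild-type libraries, and it was the lower of the mutant pair in all genes but Tpm2. Acta2 was 473 CPM in mutant replicate 1 and 349 CPM in mutant replicate 2, beside 934 CPM in the lowest of these wild-type libraries. The part of the keratinocyte markers in the result was not tested. The mutant libraries also lay above wild-type replicates 1 and 2 in Acta2 (242 and 188 CPM), and with all 5 wild-type libraries in the fit none of the 10 genes was called.

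**Figure D3:**
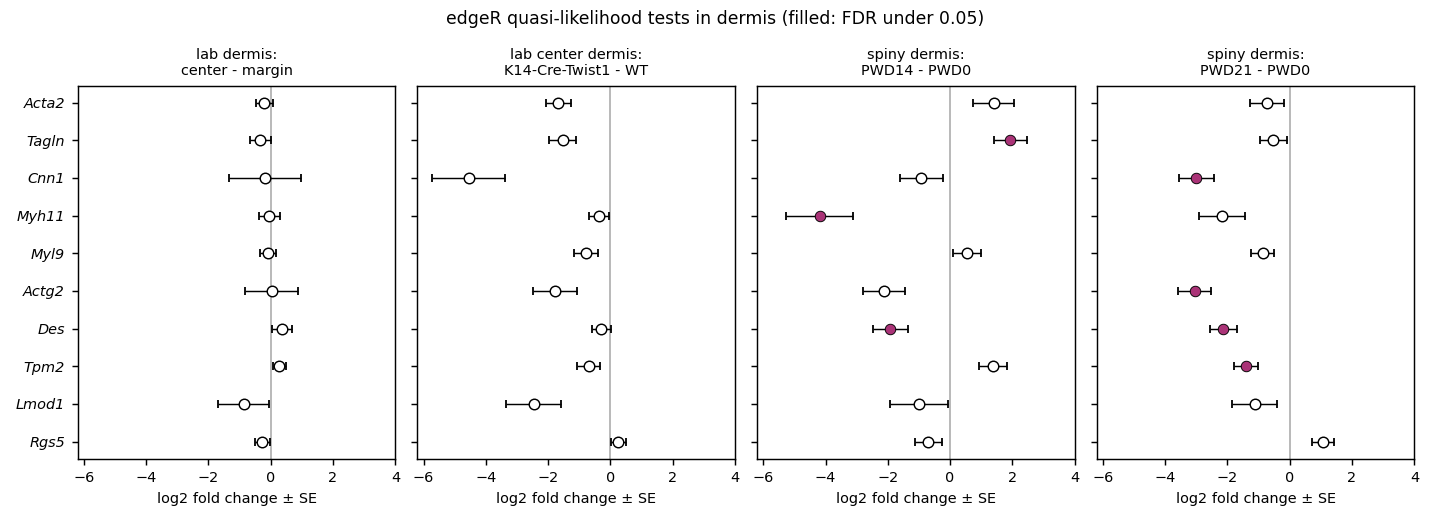
Log2 fold change of each contractile gene in the dermis comparisons, with bars of 1 SE, from edgeR's quasi-likelihood fit, where filled points passed an FDR of 0.05. Points of wound center minus margin lie near 0, points of K14-Cre-Twist1 minus wild type lie below 0 for 9 of 10 genes with none filled, and the spiny mouse points are filled for 4 genes at PWD21 and, with a single PWD14 library, 3 at PWD14.

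Epidermis, the reference tissue, held less of these genes than dermis apart from Tpm2, and Acta2 and Tagln were higher at its wound center than at its margin. Acta2 was 41.6 and 43.3 CPM in center epidermis and 4.99 and 6.19 CPM in margin epidermis (log2 difference 2.81 ± 0.26, FDR 0.0367). Tagln was 9.63 and 5.21 CPM against 0.340 and 0.254 CPM (log2 difference 4.64 ± 0.65, FDR 0.0394). These 2 of the 9 genes tested were called higher, where 0.882% of 14165 genes were. All 9 fitted values were positive, with a median of 2.81, or 2.56 with Cnn1 and Des at their bounds, beside -0.02 over all genes. Des, with no read in either margin library, was at least 13.8-fold higher at the center, Cnn1 at least 4.96-fold and Lmod1, too low to be tested, at least 3.72-fold. Without overlap, 9 of 10 genes were higher at the center, where 35.8% of genes were, and Tpm2 (167 and 215 CPM against 84.1 and 181 CPM) overlapped. The genes that were tested and not called had log2 differences of 2.42 ± 0.56 for Myl9 (FDR 0.103), 2.97 ± 1.1 for Actg2 (FDR 0.175), 2.56 ± 1.17 for Rgs5 (FDR 0.251), 1.93 ± 0.91 for Myh11 (FDR 0.254) and 0.44 ± 0.36 for Tpm2 (FDR 0.487), and the FDR of Des was 0.12 and that of Cnn1 0.186. The fit that estimates dispersion as edgeR 3 does called neither gene (FDR 0.0687 for Acta2 and 0.0778 for Tagln), and the count ranged from 1 to 7 with each library left out. Summed fibroblast markers moved with these genes, at 5496 and 4533 CPM in center epidermis and 2031 and 650.3 CPM in margin epidermis. Summed endothelial markers moved more, at 47.5 and 33.3 CPM in center epidermis and 6.69 and 2.37 CPM in margin epidermis. All 10 endothelial genes had positive fitted values with a median of 4.07, and all 8 pericyte genes with a median of 2.22, beside 2.81 for the contractile genes. Their part in the result was not tested.

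The center-minus-margin contrast itself differed between tissues in 3 genes. As an interaction term over the 8 libraries, the contrast in dermis minus that in epidermis was -3.16 ± 0.45 for Acta2 (log2, FDR 0.00436), -5.12 ± 0.75 for Tagln (FDR 0.00399) and -2.64 ± 0.57 for Myl9 (FDR 0.0287). The fitted value was negative in all 10 genes, and 3 were called lower where 3.34% of 15531 genes were. The median of all genes was -0.31 in this contrast and -0.16 with RLE size factors, so these values are to be read from that shift. The call of Myl9 was lost with the edgeR 3 estimate (FDR 0.0674) and with at least 10 counts in every library (FDR 0.0553), and in 6 of 8 fits with 1 library left out. The other fitted values were -2.13 for Myh11 (FDR 0.324), -2.95 for Rgs5 (FDR 0.254), -3.08 for Actg2 (FDR 0.597) and -0.31 for Tpm2 (FDR 0.831), and Des (FDR 0.0583), Lmod1 (FDR 0.307) and Cnn1 (FDR 0.453) had no read in margin epidermis. Lists of other cell types had negative medians in the same contrast too. Of 10 endothelial genes 6 were called lower (median -3.78), and of 14 keratinocyte genes 6 (median -2.69). Called lower as well were 1 of 8 pericyte genes (median -2.24), 2 of 10 fibroblast genes (-1.71) and 2 of 10 activated fibroblast genes (-1.36). All fitted values in these lists were negative. Center minus margin within a tissue, the keratinocyte median was -2.60 in dermis and -0.03 in epidermis, beside -0.13 and 2.81 for the contractile genes. The part of these lists in the result was not tested.

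In spiny mouse dermis the genes followed different courses over the days, and the 2 PWD0 libraries differed widely. Acta2 was 827 and 3007 CPM at PWD0, 4116 CPM at PWD14, 1370.3 and 996 CPM at PWD21 and 541 CPM at PWD28. Myh11 was 262 and 1925 CPM at PWD0, 48.2 CPM at PWD14, 181 and 303 CPM at PWD21 and 179 CPM at PWD28. The actin was thus highest in the PWD14 library and the smooth muscle myosin lowest there. All 10 genes were higher in PWD0 replicate 2 than in replicate 1, by ratios from 1.94 for Tpm2 to 7.35 for Myh11, while the PWD21 pair differed by ratios of 1.02 to 2.22. PWD0 replicate 2 also held more summed skeletal muscle RNA (589 against 294 CPM) and endothelial RNA (360.3 against 186 CPM), and their part in the difference was not tested.

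The highest level lay in the single PWD14 library for Acta2, Tagln and Tpm2, in a PWD21 library for Rgs5 and in a PWD0 library for the other 6 genes. Tagln was 1416 and 2773 CPM at PWD0, 6693 CPM at PWD14, 1789 and 1273 CPM at PWD21 and 614 CPM at PWD28. Tpm2 was 969.7 and 1880.3 CPM at PWD0, 3089.7 CPM at PWD14, 590.0 and 532 CPM at PWD21 and 329.8 CPM at PWD28. Both genes were highest at PWD14 and lowest at PWD28, days with a single library each. Per kilobase of exon, Tagln and Acta2 were the highest of the 10 genes at PWD14, at 4196 and 2023 CPM per kilobase, and Myh11 stood at 7.29 CPM per kilobase.

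At PWD21 against PWD0 (2 libraries each), 4 of 10 genes were lower and none higher by edgeR's test, where 14.1% of 14481 genes were lower and 12.1% higher. Actg2 was 299 and 1148 CPM at PWD0 and 88.0 and 90.1 CPM at PWD21 (log2 difference -3.06 ± 0.52, FDR 0.00487). Cnn1 was 165 and 759 CPM against 54.9 and 62.6 CPM (log2 difference -3.0 ± 0.57, FDR 0.00727). Des was 615 and 1575 CPM against 223 and 295 CPM (log2 difference -2.13 ± 0.44, FDR 0.0102). In these genes, and in Tpm2 (log2 difference -1.42 ± 0.38, FDR 0.0287), both PWD21 libraries lay below both PWD0 libraries, as in 29.5% of genes. Rgs5 went the other way, at 107 and 238 CPM at PWD0 and 400.4 and 359.8 CPM at PWD21, and narrowly missed the threshold (log2 difference 1.08 ± 0.35, FDR 0.0523), with both PWD21 libraries above both PWD0 libraries as in 38.2% of genes. Myh11 missed it as well (log2 difference -2.18 ± 0.72, FDR 0.0567), with 181 and 303 CPM at PWD21 overlapping 262 CPM at PWD0. Acta2 (-0.74 ± 0.54, FDR 0.339), Tagln (-0.53 ± 0.44, FDR 0.400), Myl9 (-0.87 ± 0.37, FDR 0.115) and Lmod1 (-1.12 ± 0.72, FDR 0.275) overlapped too. The median of the 10 genes was -1.27, beside 0.03 over all genes.

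The calls changed with single libraries left out, which leaves 1 library at that day, so only effect sizes are given here. The log2 difference ranged from -3.65 to -1.98 for Actg2, -3.65 to -1.71 for Cnn1, -2.56 to -1.47 for Des and -1.71 to -1.02 for Tpm2. Des is made in skeletal muscle too. Of 15 tested skeletal muscle markers, 10 were called lower at PWD21 and 1 higher, where 14.1% and 12.1% of all genes were. Ckm, the muscle creatine kinase, picked after its values were seen, was at 4.94 and 13.8 CPM at PWD0 and at 0.0456 and 0 CPM at PWD21. Summed over 16 genes the skeletal muscle markers fell less, from 294 and 589 CPM at PWD0 to 168 and 232 CPM at PWD21. Their part in the Des result was not tested. Summed keratinocyte markers were 12969.5 and 9063 CPM at PWD0 and 814 and 1485 CPM at PWD21, and activated fibroblast markers 3147 and 2586 CPM against 25920.5 and 22936 CPM. Library quality moved with the days as well. Reads on genes were 5669760 and 6804714 at PWD0 and 21927269 and 34751956 at PWD21, and the share of reads set aside for alignment quality was 60.5% and 55.2% against 44.8% and 38.0%. Their part in the PWD21 result was not tested.

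PWD14 dermis was 1 library, so its difference from PWD0 has no replicate check of its own. In a fit of all 6 spiny mouse dermis libraries, where the PWD14 library was assumed to vary like the PWD0 and PWD21 pairs, 1 of 10 genes passed as higher and 2 as lower, where 7.99% of 15344 genes were higher and 10.5% lower. These calls changed when single libraries were left out, and why was not tested. With each of the 5 libraries of other days left out, the log2 difference ranged from 1.61 to 2.41 for Tagln. It ranged from -4.98 to -2.27 for Myh11 and from -2.37 to -1.19 for Des. Tagln stood above both PWD0 libraries (log2 difference 1.94 ± 0.53, FDR 0.0392). Myh11 had the most negative value (log2 difference -4.19 ± 1.07, FDR 0.0302), with the 48.2 CPM of the PWD14 library below both PWD0 libraries. Des stood below both PWD0 libraries as well (log2 difference -1.92 ± 0.56, FDR 0.0464), at 240.0 CPM against 615 and 1575 CPM. Tpm2 (1.38 ± 0.46, FDR 0.0701) and Acta2 (1.39 ± 0.64, FDR 0.165) had positive values that did not pass, as did Myl9 (0.53 ± 0.45, FDR 0.432). Actg2 (-2.12 ± 0.66, FDR 0.0580), Lmod1 (-1.01 ± 0.93, FDR 0.479), Cnn1 (-0.92 ± 0.68, FDR 0.372) and Rgs5 (-0.70 ± 0.44, FDR 0.294) had negative values that did not. DESeq2 called 6 genes, 3 in each direction, and how many of all genes it called in this comparison is not given here. The PWD21 and PWD14 comparisons share the PWD0 libraries, so their values are given side by side only: 1.94 and -0.53 for Tagln, -4.19 and -2.18 for Myh11, -1.92 and -2.13 for Des, -0.70 and 1.08 for Rgs5, each PWD14 first.

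**Figure D4:**
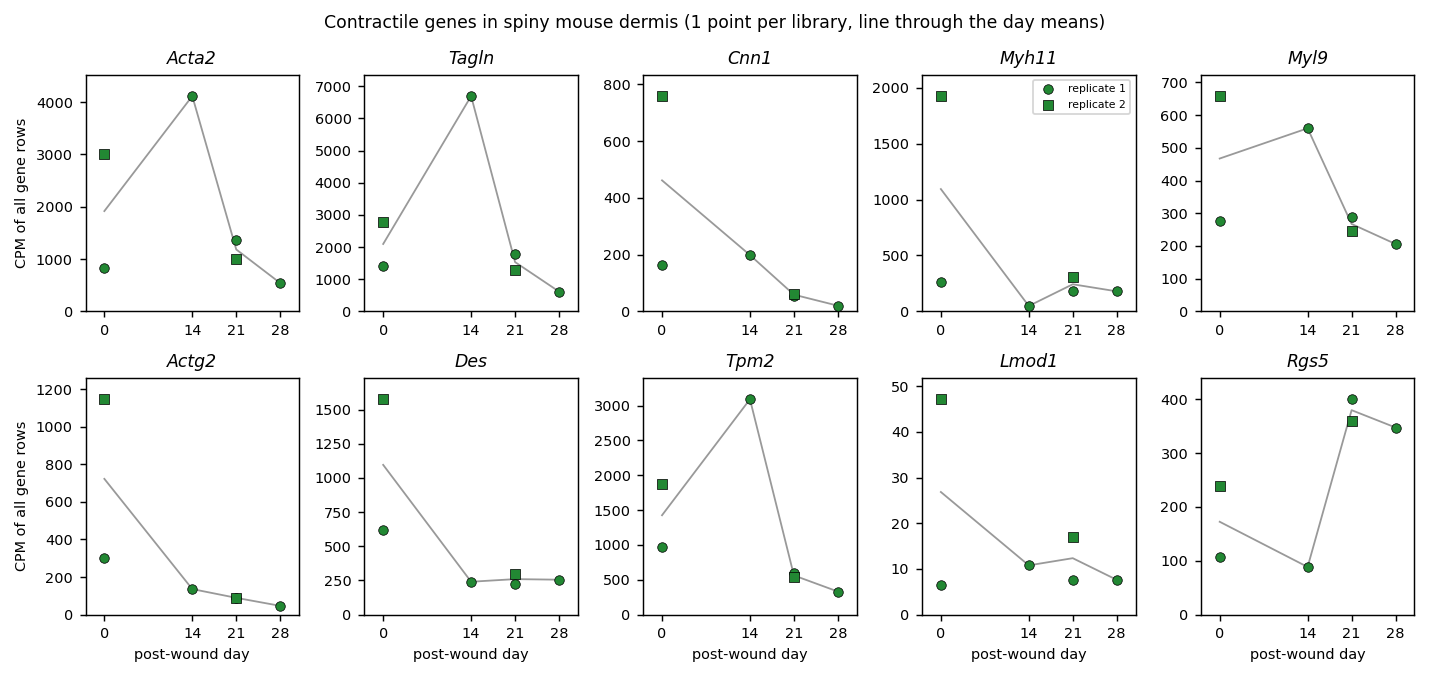
CPM, on axes that start at 0, of the 10 contractile genes in spiny mouse dermis by post-wound day, each point being 1 library (2 each for PWD0 and PWD21, 1 each for the others) and the line joining the day means. Acta2, Tagln and Tpm2 are highest in the PWD14 library, Myh11 is lowest there at 48.2 CPM, and Rgs5 is highest at PWD21.

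The ratio of Acta2 to Myh11 within a library does not depend on its depth and follows the actin found in myofibroblasts against the myosin of smooth muscle. In wild-type laboratory mouse center dermis it was 4.13 and 4.03 in replicates 1 and 2 and 15.4, 11 and 12.7 in replicates 3 to 5. It was 4.43 and 4.76 in the wound margin and 5.28 and 5.49 in the K14-Cre-Twist1 center. In spiny mouse dermis it was 85.5 in the PWD14 library, against 3.16 and 1.56 at PWD0, 7.58 and 3.28 at PWD21 and 3.02 in the PWD28 library. The PWD14 library thus stood far above all the other libraries, and replicates 3 to 5 stood above the other laboratory mouse libraries. The ratio of Tagln to Myh11 was likewise far higher in the PWD14 library, at 139, with 1.44 to 9.89 in the other spiny mouse libraries. In laboratory mice it did not set replicates 3 to 5 apart, at 5.01, 3.58 and 4.63 beside 4.06 and 3.70 in the wound margin. The ratio of Tpm2 to Des did not either, at 8.50, 2.62 and 5.50 beside 5.61 and 5.56.

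**Figure D5:**
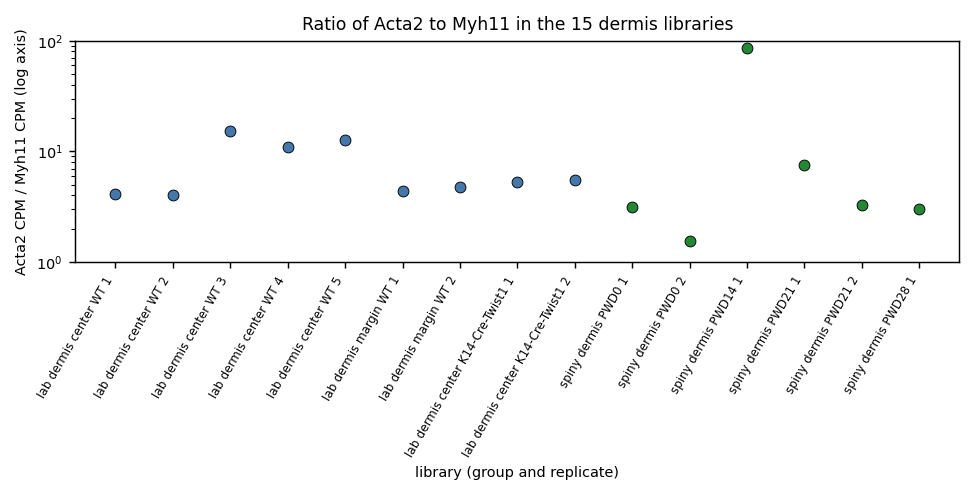
Ratio of Acta2 CPM to Myh11 CPM on a log axis in each of the 15 dermis libraries, each point being 1 library, by group. The spiny mouse PWD14 library is at 85.5, wild-type center replicates 3 to 5 are between 11 and 15.4, and the other libraries are between 1.56 and 7.58.

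Of 20 other contractile genes, a few passed the test in spiny mouse dermis, at shares near those of all genes for the higher calls at PWD21 and the lower calls at PWD14. Of 19 tested, 0 passed in either laboratory mouse dermis comparison, with medians of 0.17 for center minus margin and -0.45 for K14-Cre-Twist1 minus wild type, beside -0.03 and -0.07 over all genes. At an unadjusted p under 0.05 these comparisons held 2 of the 19 (1 higher, 1 lower) and 3 (all lower), and the DESeq2 result for this list is not given here. In spiny mouse dermis at PWD21, 2 of 19 were higher than at PWD0, Cnn2 (log2 difference 1.48, FDR 0.00827) and Cald1 (1.30, FDR 0.0181), where 12.1% of all genes were. At that day 4 were lower, where 14.1% of all genes were, Ppp1r14a (-3.55, FDR 0.000328), Kcnmb1 (-2.74, FDR 0.00525), Hspb6 (-3.42, FDR 0.00758) and Synm (-2.84, FDR 0.0356), and the median was -0.24. At PWD14, a single library assumed to vary like the pairs, 3 of 20 were called higher, where 7.99% of all genes were, Cnn2 (1.85, FDR 0.00767), Cald1 (1.73, FDR 0.0136) and Myl6 (1.66, FDR 0.0207), and 2 were called lower, where 10.5% of all genes were, Ppp1r14a (-2.16, FDR 0.00670) and Hspb6 (FDR 0.00806), which held 1 read at PWD14, with a median of -0.90. Cnn2 and Myl6 are the calponin and the light chain of many non-muscle cells, Cald1 is caldesmon, Ppp1r14a encodes an inhibitor of myosin phosphatase and Kcnmb1 a subunit of a smooth muscle potassium channel. Of 9 regulators of the CArG box and of TGF-beta signaling, 2 were higher at PWD21, where 12.1% of all genes were, the ligand Tgfb2 (log2 difference 0.97, FDR 0.0480) and the receptor Tgfbr2 (1.33, FDR 0.0128). In the single PWD14 library 1 of the 9 was called higher, Tgfb2 (1.27, FDR 0.0392), where 7.99% of all genes were. By edgeR 0 passed in laboratory mouse dermis, where 0 of 9 had an unadjusted p under 0.05 for center minus margin and 3, all lower, for K14-Cre-Twist1. Activated fibroblast markers were higher in 8 of 10 genes at both days.

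Spiny mouse epidermis held little of most contractile genes at any day. Acta2 ranged from 1.32 to 9.76 CPM and Myh11 from 0.574 to 3.68 CPM over its 6 libraries, while Myl9 ranged from 64.7 to 120.4 CPM and Tpm2 from 55.2 to 362 CPM. Between PWD14 and PWD21 (2 libraries each), 7 of the 10 genes could be tested and 3 were higher at PWD14, where 23.4% of 12889 genes were. Tpm2 was 362 and 202 CPM at PWD14 and 83.4 and 69.9 CPM at PWD21 (log2 difference 2.44 ± 0.27, FDR 8.05e-05). Myl9 was 102 and 120.4 CPM against 94.4 and 82.9 CPM (log2 difference 0.87 ± 0.17, FDR 0.00178), and Tagln 12.6 and 14.9 CPM against 11.7 and 4.05 CPM (log2 difference 1.26 ± 0.39, FDR 0.0207). Acta2 (0.72 ± 0.34, FDR 0.104), Des (0.61 ± 0.47, FDR 0.302), Myh11 (-0.52 ± 0.58, FDR 0.487) and Actg2 (-0.91 ± 0.73, FDR 0.328) did not pass, and Cnn1, Lmod1 and Rgs5 were too low to be tested. Myl9 and Tpm2, the genes with the highest levels in spiny mouse epidermis, are also made in non-muscle cells.

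Across laboratory mouse dermis libraries 9 of the genes varied together and Rgs5 stood apart, while in spiny mouse dermis more genes parted from Acta2. Over the 9 laboratory mouse dermis libraries, Pearson's r of log2(CPM + 1) with Acta2, using TMM-scaled CPM, ranged from 0.800 for Des to 0.963 for Myl9 in the other 8 genes and was 0.0203 for Rgs5. Over the 6 spiny mouse dermis libraries it was 0.967 for Tagln, 0.964 for Myl9, 0.929 for Tpm2, 0.777 for Cnn1, 0.571 for Lmod1, 0.562 for Actg2, 0.324 for Des, -0.00786 for Myh11 and -0.489 for Rgs5. Among 10138 genes whose mean reached 10 CPM, those most like Acta2 in laboratory mouse dermis were Capn5 (r = 0.983), Lasp1 (0.970), Tgfb2 (0.969), Hba-a1 (0.964, a globin gene with a near-identical copy) and Sox12 (0.963), and those most like Myh11 began with Gorasp2 (0.949). Among 9302 genes in spiny mouse dermis, the most like Acta2 was Nexn (0.987), a gene of an actin-binding protein, and the most like Myh11 was Cap2 (0.993). These are descriptions over few libraries that share tissue and group, and carry no test.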

How the data were processed

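RNA-seq was measured in 25 libraries, 13 of laboratory mouse wounds and 12 of spiny mouse wounds or PWD0 skin. For each, the authors deposited raw read counts for 24500 gene symbols, with 5 summary lines that were left out. Per the labels and the study's methods, the authors aligned 75-base reads to mm10 with STAR (2.4.1d in the labels) and counted them with HTSeq 0.6.0. Laboratory mouse epidermis libraries were stranded and paired-end, laboratory mouse dermis libraries stranded and single-end, and spiny mouse libraries unstranded and single-end. Laboratory mouse epidermis and dermis thus differ in read layout as well as tissue. HTSeq set aside 23.3% to 34.4% of laboratory mouse reads and 38.0% to 60.5% of spiny mouse reads for alignment quality. The labels give spiny mouse days as 0, 14, 21 and 28, and a supplementary table of the study gives other days. No window of 75 bases of the 10 genes' transcripts was shared with another gene (0 for each).

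CPM was computed over all gene rows. Tests used edgeR 4.0.16 (limma 3.58.1) in R 4.3.3 with TMM factors, default filterByExpr and the edgeR 4 form of the quasi-likelihood test, at a prior count of 0.125. P-values were adjusted by Benjamini-Hochberg over every gene tested. SE was obtained by dividing the size of a log2 fold change by the square root of its F. The study used edgeR 3, so its dispersion estimate was added as an alternative, chosen after seeing the data. Each of the 10 comparisons was first tested on simulated data with 200 changed genes. Alternatives were DESeq2 1.42.0, RLE size factors, no filter, at least 10 counts in every library, other choices of libraries and each library left out. Python 3.11.15 (numpy 2.4.6, pandas 2.3.3, matplotlib 3.10.9) was used for summaries and plots. Groups came from the labels. The division of wild-type center dermis came from the study's library names. The 10 genes and the other lists were chosen with earlier results of these data known. All 10 genes are named in all comparisons, genes of other lists only as the up to 3 per direction with the smallest FDR, or all of a count of 5 or fewer, and Ckm was chosen after its values were seen.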

Additional observations from a re-analysis of the deposited data

Results flagged for a closer look

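Actg2 stood out within the 5 wild-type wound center dermis libraries of laboratory mice. Replicate 3 was at 121 CPM and the next library at 32.2 CPM, so that the gap was 0.744 of the group's whole range. The limit it passed is one that chance passes in about 1 of 20 groups of 5 drawn from a single normal distribution. These 5 libraries did not form a single level, so that rate does not carry over to them. The limit was applied to each of the 10 genes, of which 1 passed.

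The center-minus-margin contrast differed between dermis and epidermis in 3 genes by an interaction term of edgeR's quasi-likelihood test, with log2 values of -3.16 for Acta2 (FDR 0.00436), -5.12 for Tagln (FDR 0.00399) and -2.64 for Myl9 (FDR 0.0287). In margin epidermis, Acta2 was at 4.99 and 6.19 CPM, Tagln at 0.340 and 0.254 CPM and Myl9 at 1.53 and 0.809 CPM. The 4 epidermis libraries were paired-end and the 4 dermis libraries single-end, so tissue and read layout cannot be told apart.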

How the results depend on the processing

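No paired analysis was possible because the labels give no replicate numbers shared between groups. Across 47 other settings for the 10 counts of called contractile genes, leaving out libraries aside, 5 counts moved by over 1.5 times. DESeq2 gave 3 genes for K14-Cre-Twist1, 4 for laboratory mouse epidermis, 5 for the difference of region contrasts and 6 for PWD14 against PWD0, and a minimum of 10 counts in every library gave 4 for margin dermis against epidermis, where it left 5 genes to test. The edgeR 3 estimate, chosen after seeing the data, gave 0 for laboratory mouse epidermis. The cause of the other changes was not tested. With single libraries left out, the counts ranged from 0 to 4 for K14-Cre-Twist1, 1 to 7 for laboratory mouse epidermis, 2 to 4 for the region contrasts, 5 to 9 for center and 8 to 10 for margin dermis against epidermis, 0 to 6 for PWD14, 0 to 8 for PWD21 and 2 to 4 for spiny mouse epidermis, and stayed at 0 for center against margin and 10 for spiny mouse dermis against epidermis. The epidermis count was 7 without margin replicate 2, 5 without margin replicate 1 and 1 without center replicate 1.

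Counts over all genes moved more. Those of fits with a library left out, and of DESeq2 for PWD14 against PWD0, are not given here. Center against margin dermis called 125 genes, 738 with DESeq2, 54 with the edgeR 3 estimate, 323 with all 5 wild-type center libraries and 5 with all 9 dermis libraries in 1 fit. K14-Cre-Twist1 called 8 genes, 787 with DESeq2, 2 with the edgeR 3 estimate, 74 with all 9 dermis libraries, 190 with all 5 wild-type libraries and 0 with at least 10 counts in every library. Laboratory mouse epidermis called 176 genes, 1511 with DESeq2 and 0 with the edgeR 3 estimate, and the region contrasts 540, 1125 with DESeq2 and 204 with at least 10 counts.

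Of 999 alternative values for single genes, 884 kept direction and side of the threshold, 42 lost and 48 gained a call, and 25 turned direction, of which 18 came from a library left out and 0 were called in either fit. For center minus margin dermis, Actg2 was -0.000684 with DESeq2, and all 5 wild-type center libraries gave 1.92 for Acta2, 0.73 for Tagln, 3.0 for Cnn1, 0.64 for Myh11, 0.97 for Myl9 and 2.10 for Lmod1. With libraries left out, that comparison ranged from -0.57 to 0.29 for Acta2, -0.79 to 0.31 for Tagln, -8.70 to 0.78 for Cnn1, -0.45 to 0.51 for Myh11, -0.39 to 0.24 for Myl9 and -3.19 to 1.13 for Actg2. Tpm2 ranged from -0.92 to 0.12 in the region contrasts, -0.45 to 0.0861 in center and -0.78 to 0.27 in margin dermis against epidermis. At PWD21, Acta2 ranged from -1.31 to 0.28 and Lmod1 from -1.88 to 0.71, and at PWD14 Cnn1 ranged from -1.59 to 0.44 and Lmod1 from -1.79 to 0.89, each positive only without PWD0 replicate 2. Groups of 1 to 5 libraries limit all tests.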
